A study of Homo sapiens with 6 samples.

Results

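The genes examined here encode the protein subunits of the cytosolic ribosome. They were taken from 1 merged transcript assembly of EndoC-βH1, an established human line of pancreatic beta cells, by their names: those of the RPL and RPS series with a number, together with RPSA, RPLP0, RPLP1 and RPLP2, on chromosomes 1 to 22 and X, with at least 1 transcript that carries a protein-coding RefSeq accession. The S6 kinases and names of pseudogenes were left out. This gave 84 genes among 19092 coding gene names, 52 for the large subunit and 32 for the small subunit. They lay on 21 chromosomes, with 12 on chromosome 19 and 9 on chromosome 3.

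The cytosolic ribosome reads messenger RNA on its small subunit and joins amino acids on its large subunit, and nearly all of its proteins are present in a single copy per particle. Their mRNAs are known for a terminal oligopyrimidine start, a C followed by a run of pyrimidines, through which their translation responds to nutrients and the mTOR pathway. Several of the genes carry small nucleolar RNAs, which guide chemical modification of ribosomal RNA, in their introns. In beta cells, ribosomes serve an unusually large output of a single secreted hormone, insulin.

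The series had 6 libraries, all from cells that carried a lentivirally delivered short hairpin RNA against the promoter of the insulin gene. In the 3 INS-KD libraries the hairpin was induced with doxycycline at 1 mg/mL for 7 days. The 3 Negative Control libraries came from cells with the construct that received no doxycycline, so exposure to doxycycline and induction of the hairpin cannot be told apart. The assembly pools all 6 libraries and holds exon positions without any abundance, so the depth is unknown, the subunit genes cannot be compared between the groups, and nothing below has a replicate or a direction between them. Presence of a RefSeq transcript in the assembly is no measure of expression, and no marker of the cell type could be checked. The values below are complete counts over gene names, set beside the same counts over all names, with no test.

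The 84 genes had 163 transcript models at 85 loci. Of these, 152 were identical to a RefSeq transcript, 144 of them with a coding accession, and 11 were joined models, which share splice junctions with a RefSeq transcript but have another intron chain. A single RefSeq transcript stood for 50 genes, 19 had 2 and 15 had 3 or more. More than 1 was listed for 34 of 84 genes (40.5%), against 45.3% of all coding names. RPL17, a protein at the exit of the peptide tunnel, had the most with 8. It was followed by RPL15, an RNA-binding protein of the large subunit core, and RPS24 with 6 each, RPL28 with 5, and RPL13, RPL13A and RPS3 with 4 each. Another 7 genes had 3, among them RPL10 and RPL18. Transcripts with a noncoding accession were listed at 4 of 84 genes (4.76%, against 8.06% of coding names), among them RPL13A, RPL18 and RPL21. RefSeq now gives the only such accession of RPL21, and 1 of the 2 of RPL13A, to pseudogenes on other chromosomes. The counts in this paragraph, including the 4 transcripts of RPL13A and the 34 genes with more than 1, still hold these models.

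**Figure D1:**
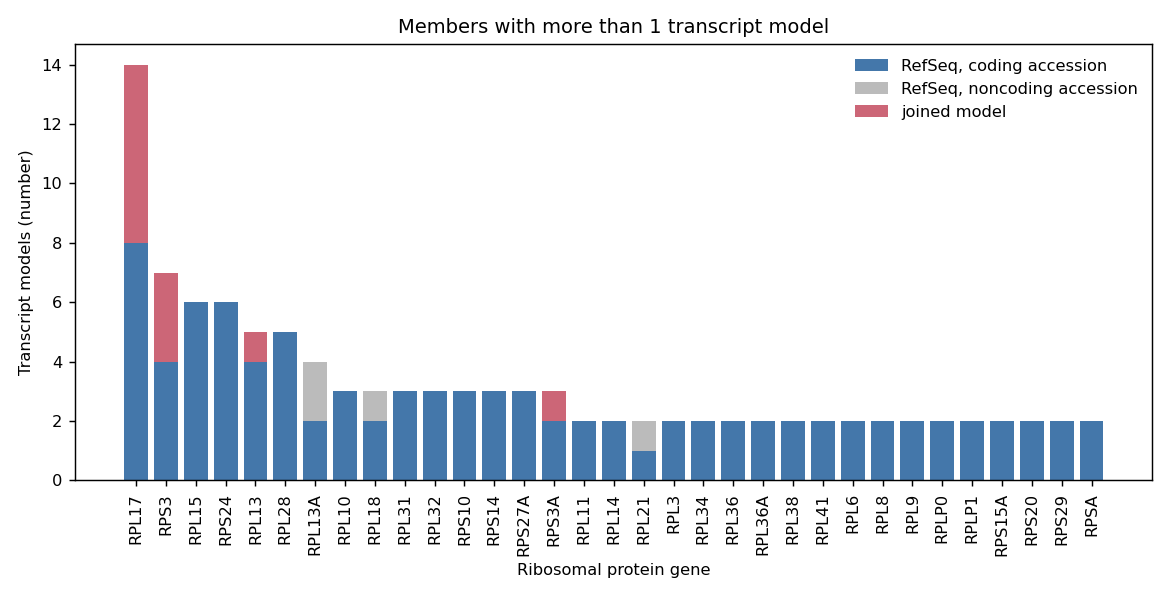
Number of transcript models (vertical axis) for 33 ribosomal protein genes with more than 1, stacked by kind: RefSeq models with a coding accession, RefSeq models with a noncoding accession, and joined models. RPL17 stands highest with 14 models, 6 of them joined, and RPS3 follows with 7, 3 of them joined.

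Where a subunit gene had several coding transcripts, these often encoded the same protein. Among 33 such genes, 16 (48.5%) had 1 longest reading frame in all coding transcripts, against 14.8% of 8228 coding names. Genes for translation factors and other proteins whose mRNAs are known for a pyrimidine start had it in 3 of 8 cases. For genes of the mitochondrial ribosome it was 5 of 22, of the proteasome 1 of 22, and for ribosome assembly factors 1 of 11. The number of transcripts per gene was not matched in these shares. RPL15 had 6 transcripts from 3 start groups, the sets of transcripts that the assembly gives a common start, and 5 of them held the same frame of 204 amino acids. Its remaining transcript, with 5 exons, had a frame of 145 amino acids. RPS27A, made as a fusion of ubiquitin with a small subunit protein, had 3 transcripts from 3 start groups, and all held the same frame of 156 amino acids. RPL32 likewise had 3 transcripts with 1 frame of 135 amino acids, and RPS14 had 3 with 1 frame of 151 amino acids. At RPL28 the pattern was the opposite. Its 5 transcripts shared the first exon of 34 bases and had 5 different frames of 69, 87, 137, 163 and 169 amino acids.

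RPS24, a small subunit protein mutated in some families with Diamond-Blackfan anaemia, varied at its end. All 6 transcripts began with the same exons of 145, 66, 210 and 111 bases. They ended in 6 different frames, of 130, 131, 131, 132, 133 and 289 amino acids. The shorter frames differed by very small exons between the fourth exon and the last, listed in pairs whose members end at the same base. The exons are given for hg19, plus strand, because they set the end of the protein, and capitals mark the bases by which the longer of a pair begins earlier.
RPS24 exon of 18 bases, chr10:79797723-79797740: aaatgaagtgtctagcag
RPS24 exon of 21 bases, chr10:79797720-79797740: CAGaaatgaagtgtctagcag
RPS24 exon of 22 bases, chr10:79799962-79799983: tgagctggagattggatcacag
RPS24 exon of 25 bases, chr10:79799959-79799983: CAGtgagctggagattggatcacag
The introns before the exons of 21 and 25 bases did not end in the usual AG on the genome sequence, since their ends read GT-AT and GT-TT. Among 440 distinct introns of the subunit genes, 436 were GT-AG, and the remaining pair, in RPS27A and RPL3, were GC-AG. GENCODE also lists an exon of 3 bases at chr10:79797197-79797199, which reads AAG on this build. How this exon relates to those of 21 and 25 bases is not settled here, so the bases in capitals, and the frames of the transcripts that contain them, are uncertain. Very small exons occurred in RPL41 (25 and 23 bases), in RPL13 (21 and 12 bases) and in RPL3 (19 bases) as well. These 3 genes were chosen here after their values were seen.

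Joined models were present at 4 of 83 subunit genes with several exons (4.82%, exact 95% interval 1.33 to 11.9%), against 12.4% of all gene names with several exons. Those names include noncoding genes, and of the coding names with several exons 14.05% had a joined model. Among genes with at least 2 RefSeq transcripts the share was 11.8%, against 27.8%. Over all names the share rose with the number of RefSeq transcripts. With 1 transcript it was 0 of 49 subunit genes against 0.75%, and with 2 it was 1 of 19 against 6.03%. With 3 it was 0 of 7 against 33.8%, and with 4 or more 3 of 8 against 54.5%. Subunit genes with 1 or 2 transcripts were thus close to all names, and few genes had more. The large subunit genes RPL13 and RPL17 and the small subunit genes RPS3 and RPS3A had joined models, with 1, 6, 3 and 1. Genes of the mitochondrial ribosome, a separate particle inside mitochondria, had a joined model in 4 of 77 cases (5.19%), and subunits of the proteasome, the cell's protease complex, in 3 of 38 (7.89%). Genes for ribosome assembly factors had one in 5 of 28 cases (17.9%). All introns of the 11 models were introns of RefSeq transcripts. GENCODE held 0 of the 11 chains, 6 of them from RPL17 alone. It held 91.4% of 151 RefSeq chains of the subunit genes, near 88.2% of 43012 such chains on chromosomes 1 to 22 and X. The share over all joined models of the assembly was not counted, so 0 of 11 is not read as a trait of these genes.

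All 6 joined models of RPL17 ran through into the next gene. They began at the RPL17 start, skipped its last exon and ended with the last exon of C18orf32, over chr18:47007548-47018935 on the minus strand. RefSeq lists the read-through gene RPL17-C18orf32 at the same place, with a pair of transcripts. The longest frame of the 6 models was 228 amino acids, identical to that of 1 of these read-through transcripts and longer than the 184 amino acids of RPL17. They had 8 or 9 exons and 2049 to 2347 spliced bases. The models differed only before the ATG, which lay 121, 219, 304, 321, 402 or 419 bases from the start. A further annotated RPL17 transcript lacks the exon of 41 bases and has a frame of 146 amino acids.

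**Figure D2:**
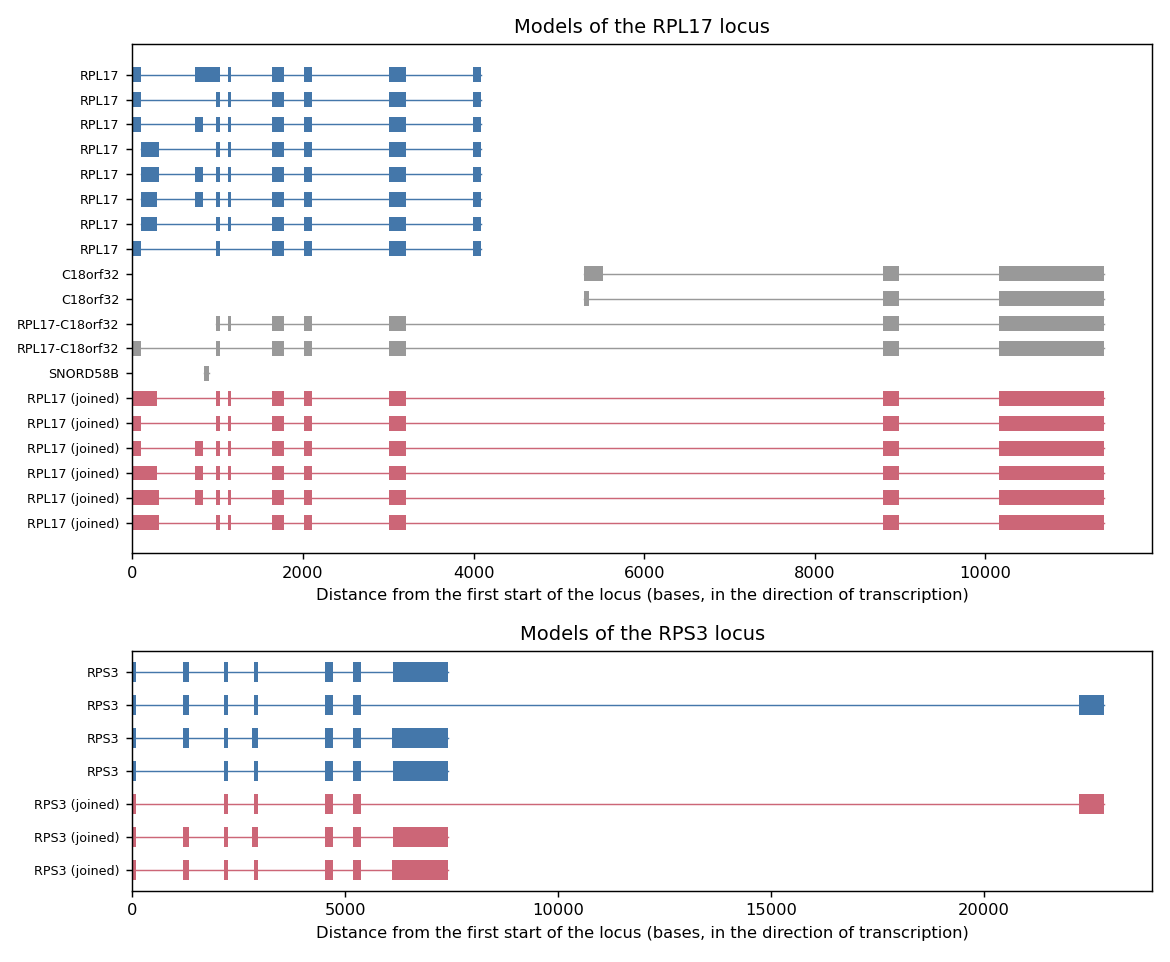
Exons (boxes) and introns (lines) of each model at the RPL17 locus and at the RPS3 locus, against the distance in bases from the first start in the direction of transcription. Blue marks RefSeq models of the named gene, grey those of other names and red joined models. The red RPL17 models end where C18orf32 ends, and 1 red RPS3 model uses the distant last exon that 1 blue model also has.

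RPS3, which lines the channel through which mRNA enters the small subunit, had 3 joined models. The first had a frame of 259 amino acids and the second of 243, each identical to a frame of a RefSeq transcript of the gene. They recombined an exon of 143 or 95 bases with a last exon of 1300 or 1331 bases. The third skipped the exon of 131 bases and used a last exon of 575 bases that ends at chr11:75133345. From the usual ATG its frame was 16 amino acids. Its longest frame, of 120 amino acids, began in the last exon and matched that of no RefSeq transcript in the locus. All exons before the last were those of a RefSeq transcript of the gene whose longest frame, of 117 amino acids, lies within them. The third model thus also holds that annotated frame. At RPS3A, the joined model had an exon of 1416 bases that is in no RefSeq transcript and covers the place of SNORD73A. Its longest frame of 69 amino acids was that of the shorter RefSeq transcript, against 264 in the main one, and more than 50 bases separated its stop from the last junction. The RPL13 model had a first exon of 353 bases and a frame of 164 amino acids, both known from different RefSeq transcripts of that gene.

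In 7 of 84 cases (8.33%, against 4.32% of coding names) the locus also carried another gene name. RPL17 shared it with C18orf32, RPL17-C18orf32 and SNORD58B. RPL36A, a large subunit protein, shared it with HNRNPH2 and the read-through RPL36A-HNRNPH2, and RPS10 with NUDT3 and RPS10-NUDT3. Another 2 joined models, not counted above because they carry the name RPS10-NUDT3, belonged to the RPS10 start group and ran through to the last exon of NUDT3. Both had 9 exons and a longest frame of 291 amino acids, as long as that of the RefSeq read-through transcript, and the chain of 1 of them was in GENCODE. The other 4 carried a small RNA: MIR6805 at RPL28, SNORA7A at RPL32, MIR4426 at RPS27A and SNORD73A at RPS3A. RPL17, RPL32, RPL36A and RPS10 had a start group in common with another name, so a value summed per start group in this assembly would mix them.

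The genes were compact. The median span on the genome was 4519 bases, against 22521.5 for all coding names, and 83 of 84 lay below that value. RPS24 was the exception with 23054 bases, through its 1 transcript with a frame of 289 amino acids, which ends at chr10:79816571. The other RPS24 transcripts have the same start and end at chr10:79800473. The median spliced length was 745 bases against 2674, and the median reading frame was 156 amino acids against 433. All 84 frames were shorter than the median of all names. RPL4, which lines the peptide tunnel, had the longest at 427 amino acids. RPL39 and its paralogue RPL39L had the shortest by this measure, at 51. RPL41 had 55, but GENCODE gives it 25 amino acids, fewer than either. The median number of exons was 5 against 8, from 1 in RPL10L to 10 in RPL3, RPL3L and RPL4. These values come from 1 coding transcript per gene, that with the longest frame.

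First exons, last exons and introns were short, while internal exons were close in length to those of other genes. The median first exon measured 82 bases against 234, the median last exon 184 against 1180, and the median internal exon 114 against 126. The shortest first exons were those of RPL7L1, with 19 bases, and RPS2, a protein of the decoding region, with 20. First introns had a median of 505 bases against 3551, and 82 of 83 genes lay below that value. The exception was RPL39L with 11150 bases. The median over genes of the typical intron was 550.5 bases against 1829, from 121 in RPS16 to 8910 in RPL39L. Mitochondrial ribosomal protein genes had as many exons (median 5) but a longer span (8270 bases) and first exon (183 bases). Proteasome genes had 9 exons and a span of 15344 bases. Large and small subunit genes were close to each other, with median spans of 4586.5 and 4316.5 bases.

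**Figure D3:**
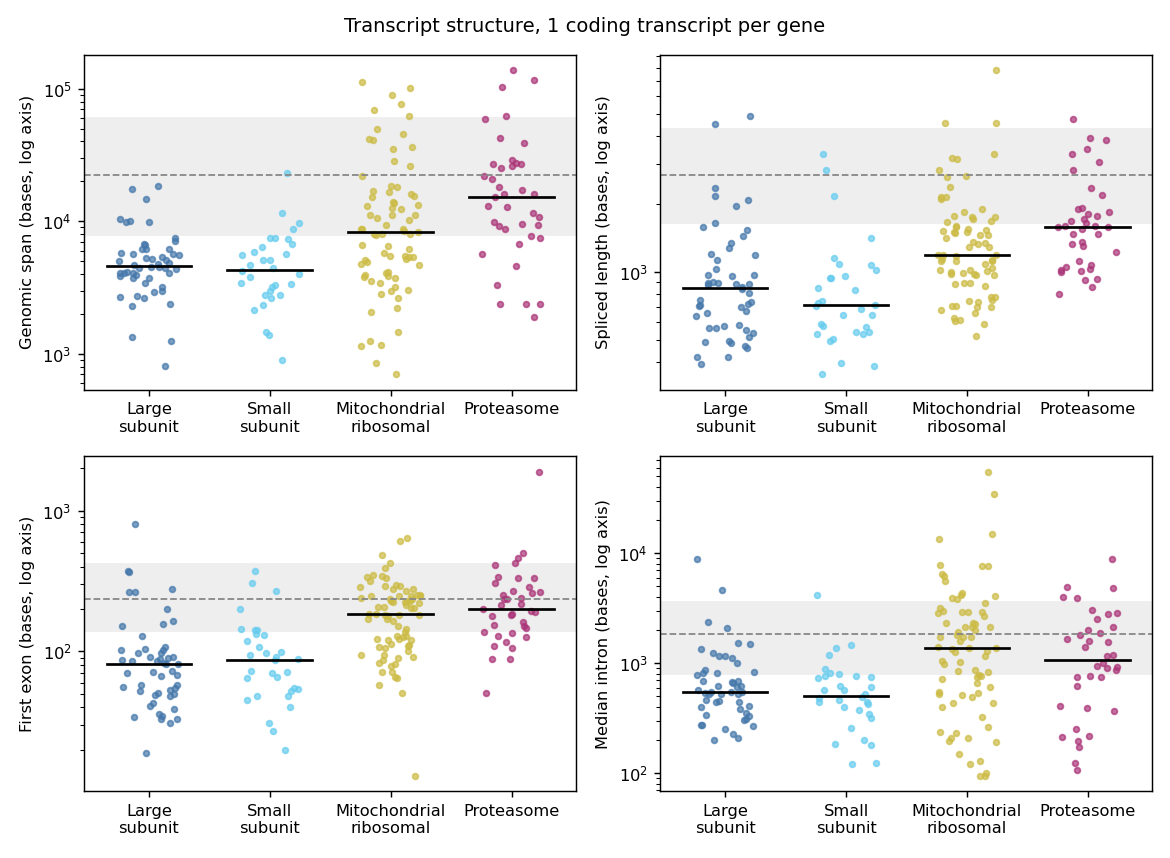
Genomic span, spliced length, first exon and median intron in bases (log axes) for large subunit, small subunit, mitochondrial ribosomal and proteasome genes. Each point is 1 gene and black lines are group medians, while the dashed line and grey band give the median and the middle 50% of all coding names. Most ribosomal protein genes lie below the dashed line in each panel, with median spans of 4586.5 and 4316.5 bases in the large and small subunit.

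Untranslated parts were short too. A median of 79.5 bases preceded the frame, against 163, and 67 bases followed it, against 800. Mitochondrial ribosomal protein genes were close to the subunit genes before the frame, with a median of 85 bases, but had 314 after it. Proteasome genes had 118 and 316. RPS12 had 22 bases after its frame, the fewest, and RPL27A had the most with 4066. RPL27A also had the longest transcript, 4879 bases, while RPS27, a zinc-finger protein of the small subunit, had the shortest with 351. The start of the longest frame was the GENCODE start codon in 79 of the 82 genes that have one on this build. RPL41, RPL22L1 and RPS29 differed. For RPL41, the smallest subunit, GENCODE gives 25 amino acids where the longest frame has 55, so the values of these 3 genes that rest on the frame should be read with that in mind.

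The first splice junction lay at the start codon in many subunit genes. In 39 of 83 (47.0%) the ATG was within 3 bases of that junction, against 3.92% of all coding names with several exons. The share was 21 of 51 in the large subunit and 18 of 32 in the small one. Mitochondrial ribosomal protein genes had 0 of 77 (exact upper 95% limit 4.68%), and proteasome genes had 2 of 38. Of 28 genes for ribosome assembly factors, 2 had it, and so did 1 of 21 genes for translation factors and other proteins whose mRNAs are known for a pyrimidine start.

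In 20 genes (24.1%, against 1.29% of all names) the ATG was exactly the last 3 bases of the first exon, so that the first exon carried no codon but the first. They included RPL3, near the site of peptide bond formation, RPL4, RPL5, which binds the smallest ribosomal RNA, RPL39, RPS4X, RPS24, RPS25 and RPS26. In 9 others 1 to 3 bases of the first exon followed the ATG, as in RPL11 and in RPS6, the substrate of the S6 kinases. In RPL6, RPL31, RPS10 and RPS19, the last of which is the gene first linked to Diamond-Blackfan anaemia, the ATG was the first 3 bases of exon 2. In 6 more, among them RPLP2, 1 to 3 bases of exon 2 preceded it. The junction fell inside the ATG in 0 of the 83 genes, against 24 of 17877 coding names. The sequences show 3 of these arrangements in 4 genes on hg19, with the last 15 bases of exon 1 followed by the first 15 of exon 2 and the ATG in capitals.
RPL4, minus strand, chr15:66797126-66797140 and chr15:66795853-66795867: cctctctccgccATGgcgtgtgctcgccca
RPS24, plus strand, chr10:79793648-79793662 and chr10:79795110-79795124: tagatcgccatcATGaacgacaccgtaact
RPS6, minus strand, chr9:19380188-19380202 and chr9:19379602-19379616: tgcttcaagATGaagctgaacatctccttc
RPS19, plus strand, chr19:42364345-42364359 and chr19:42364845-42364859: cgcggaggccgcacgATGcctggagttact
RPL4 and RPS24 have the ATG at the very end of exon 1, RPS6 has 3 further bases after it, and RPS19 has it at the start of exon 2. The other members were spread over both sides. The ATG lay more than 3 bases before the end of exon 1 in 17 genes, such as RPS3 and RPLP1, and more than 3 bases beyond the junction in 27, such as RPLP0, RPL15 and RPSA. The whole ATG lay in the first exon in 46 of 83 genes (55.4%), against 63.7% of all names. Counting every ATG in the first exon or within 3 bases of the junction, the share was 67.5%, against 65.7%.

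**Figure D4:**
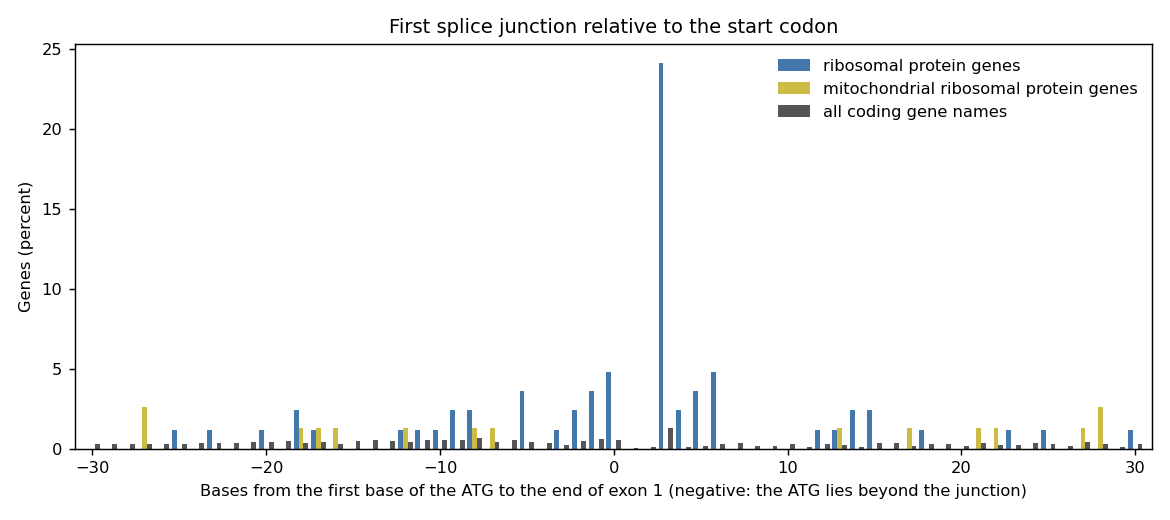
Percent of genes (vertical axis) by the distance in bases from the first base of the ATG to the end of exon 1, for ribosomal protein genes, mitochondrial ribosomal protein genes and all coding names with several exons. Genes beyond 30 bases on either side are counted in the percentages but not drawn. The bar for ribosomal protein genes at 3 bases, where the ATG ends exon 1, reaches 24.1%.

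The pyrimidine start was read as a C at the first base followed by at least 4 pyrimidines. At the starts given in the assembly, 15 of 84 genes had it (17.9%), against 2.81% of coding names. It was found in 11 of 32 small subunit genes and 4 of 52 large subunit genes. The stalk proteins RPLP0, RPLP1 and RPLP2 bind elongation factors, and only RPLP1 of these 3 had the run. Transcript starts on hg19 are shown with the C and the pyrimidines after it in capitals.
RPL34, plus strand, chr4:109541722-109541741: CTTTTTTCTTCCTCTTCCgg
RPS2, minus strand, chr16:2014808-2014827: CTTCTTTTCCgacaaaacac
RPLP1, plus strand, chr15:69745159-69745178: CCTTTCCTCagctgccgcca
RPLP2, plus strand, chr11:809936-809955: ggtttaaccccgcctcttgc
RPS3, plus strand, chr11:75110535-75110554: atactcacttccgcccgcga
RPL34 had 17 pyrimidines after the C, the most, while RPLP2 and RPS3 began with other bases.

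The share depended on which base is called the start. When the C could lie within 5 bases of the annotated start, 43 of 84 genes (51.2%) had the run, against 18.95% of coding names. For 67 of the genes, RefSeq's promoter table on GRCh38 gives a newer start. Of these 67, 11 (16.4%) had the run at the start in the assembly and 43 (64.2%) at the newer one. The same change over 14119 coding names was from 2.73 to 4.64%, over 68 mitochondrial ribosomal protein genes from 4.41 to 7.35%, and over 34 proteasome genes from 0 to 0 genes. The listed translation factors and other genes known for a pyrimidine start moved as the subunit genes did, from 2 of 13 to 10 of 13 (76.9%). At the newer starts the large subunit, with 26 of 42, and the small subunit, with 17 of 25, were close. The newer start could be placed near the one in the assembly for 57 genes. The assembly's start was upstream in 43, identical in 9 and downstream in 5, with a median distance of 24 bases. The newer starts of RPLP2 and RPS3, and those of RPLP0 and RPS3A, all have the run (GRCh38, capitals as above).
RPLP0, minus strand, chr12:120201092-120201111: CCTTCTCTCgccaggcgtcc
RPLP2, plus strand, chr11:809967-809986: CCTTTTCCTCCCTgtcgcca
RPS3, plus strand, chr11:75399518-75399537: CCTTTCCTTTCagcggagcg
RPS3A, plus strand, chr4:151099628-151099647: CCCTTTTggctctctgacca
Both sets of starts are annotation, and no start was measured in these cells.

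The window from 250 bases before to 50 after the start in the assembly was searched on both strands for 3 motifs. A CCGGAA and an AAGATGGC can overlap by the letters AA, and each was counted on its own. TATAAA, the TATA box, was present in 8.33% of the subunit genes and 9.96% of all coding names. CCGGAA, the core bound by ETS factors, was present in 54.8%, against 20.6%, and in 52.0% of mitochondrial ribosomal protein genes. AAGATGGC, part of the motif of the factor YY1, was present in 10.7%, against 3.01%, and in 18.2% of mitochondrial ribosomal protein genes. The other lists were above all names for CCGGAA as well, with 61.9% of translation factors and other genes known for a pyrimidine start, 42.9% of ribosome assembly genes and 35.9% of proteasome genes. AAGATGGC was present in 28.6% of that first list. A match is a string of letters and no sign of binding.

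Opposite-strand neighbours began within 1000 bases upstream of 18 of 84 genes (21.4%), against 12.4% of coding names and 33.8% of mitochondrial ribosomal protein genes. RPL12 and LRSAM1 started 54 bases apart, RPL7A and MED22 58 bases, RPL9 and LIAS 76 bases, and RPL36A and BTK 94 bases.

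Small nucleolar RNA genes lay inside introns of 27 of 83 subunit genes (32.5%), against 0.748% of all coding names with several exons. Together the 27 held 54 of the 199 small nucleolar RNAs inside introns of coding genes (27.1%). The large subunit contributed 19 hosts and the small subunit 8. Of the 54, 37 were of the box C/D class, which guides ribose methylation, and 17 of the box H/ACA class, which guides conversion of uridine to pseudouridine. They measured 62 to 154 bases.

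RPL13A, RPL23A, RPL4 and RPL7A held 4 each, all box C/D. In RPL13A, a protein with a further role in silencing of translation after interferon, these were SNORD32A, SNORD33, SNORD34 and SNORD35A. RPL4 held SNORD16 and the 3 related genes SNORD18A, SNORD18B and SNORD18C. RPL7A held SNORD24 with SNORD36A, SNORD36B and SNORD36C, and RPL23A held 2 pairs, SNORD4A with SNORD4B and SNORD42A with SNORD42B. RPL17 and RPL3 held 3 box C/D RNAs each, and RPS12 held SNORD100, SNORD101 and the box H/ACA RNA SNORA33. RPL21, RPL27A, RPL5, RPS2, RPS3 and RPSA held 2 each. Hosts of 1 each included RPL10, RPL12, RPL13, RPL23, RPL30, RPL32, RPL37, RPL39, RPLP2, RPS20 and RPS3A. Of the 54, 5 lay in the first intron. Introns with a small nucleolar RNA had a median of 522 bases, and the other introns of the same transcripts 477, within overlapping ranges of 175 to 3175 and 79 to 3283.

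**Figure D5:**
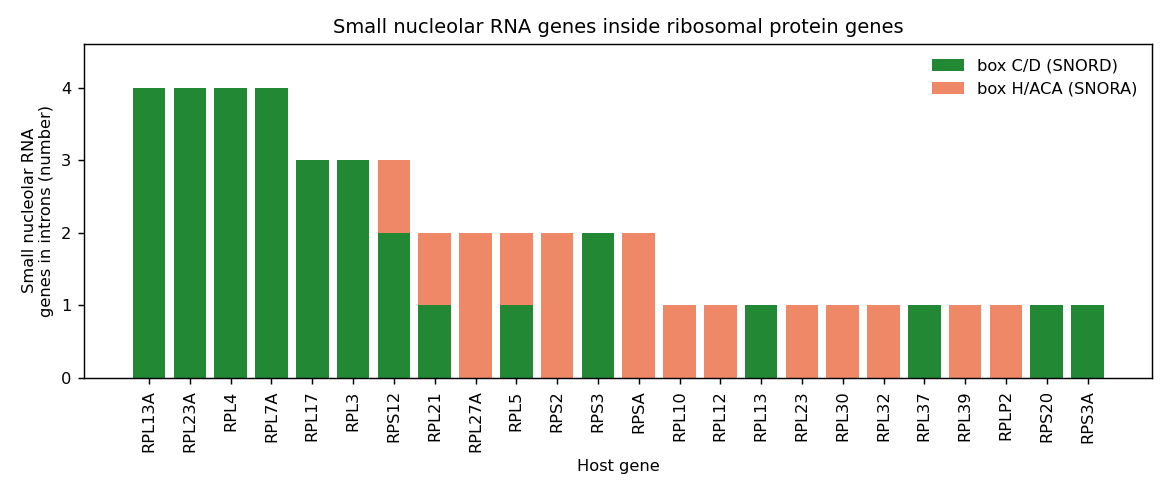
Number of small nucleolar RNA genes inside introns (vertical axis) for 24 host genes, split into box C/D (green) and box H/ACA (orange). RPL13A, RPL23A, RPL4 and RPL7A reach 4, all box C/D, and 11 of those drawn have 1.

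Other genes of the ribosome pathway also carried such RNAs. Of 28 ribosome assembly genes, 6 were hosts, among them NOP56, a core protein of box C/D particles, with 5, the most of all coding genes. Of 21 genes for translation factors and other proteins with a pyrimidine start, 5 were hosts, and EIF4A2, a helicase of translation initiation, held 4. Mitochondrial ribosomal protein genes had 1 host in 77 and proteasome genes 0 in 38.

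The listed paralogues ranged from near-identical to distant copies of their main genes. RPL26L1 had 98.6% of amino acids identical to RPL26, RPS27L 96.4% to RPS27, RPL10L 95.3% to RPL10 and RPL39L 92.2% to RPL39. Lower values were found for RPL3L, known from muscle, at 76.9% of RPL3, for RPL22L1 at 70.3% of RPL22 and for RPL7L1 at 45.2% of RPL7. RPL10L, known from testis, had 1 exon where the RPL10 transcripts had 6 or 7. RPS27L had a transcript of 1084 bases where RPS27 had 351. Of the 7 paralogues, 0 held a small nucleolar RNA and 0 had the pyrimidine start in the assembly. Among the main copies RPL3 held 3 such RNAs, RPL10 and RPL39 held 1 each, and RPS27 had the pyrimidine start in the assembly. At the newer RefSeq starts, RPL22L1 had the run, while RPL7L1, RPL10L, RPL26L1 and RPS27L did not. Of the main copies with a newer start, RPL22, RPL26, RPL39 and RPS27 had it there, and RPL3 and RPL10 did not. The ATG was within 3 bases of the first junction in RPL3L and RPS27L.

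Near-identical copies limit what read counts on this assembly could resolve. RPS18 had 5 further models on haplotype sequences, which were not counted. The file also held 28 names of ribosomal protein pseudogenes from 19 parent genes, 19 of them with 1 exon. Their best match to the parent's reading frame ranged from 60.5 to 99.6%, with a median of 90.8%. RPSAP58 was the closest, at 99.6% of RPSA, a protein of the small subunit that is also known as the laminin receptor, followed by RPS26P11 at 97.7% and RPSAP9 at 97.5%. RPL13A and RPL21 each had a model whose noncoding accession RefSeq now gives to a pseudogene on another chromosome, RPL13AP5 on chromosome 10 and RPL21P28 on chromosome 1. In the whole file, 17 models carried an accession that RefSeq now gives to another symbol on another chromosome, and 16 of these accessions were noncoding.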

How the data were processed

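RNA was sequenced from 6 libraries of EndoC-βH1, from 3 INS-KD and 3 Negative Control samples, grouped by their titles, with libraries made from full-length cDNA per the labels' protocols. The deposited file is 1 merged transcript assembly of the series. Its values are 1-based exon positions with text tags, and the authors deposited no score, count or FPKM in it. The submitters' processing notes name TopHat2, Cufflinks and the build hg19. With which settings they were used is not given in the sources used here. Planned expression tests could therefore not be run.

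Models were rebuilt with Python 3.11.15 (scipy 1.17.1, numpy 2.4.6), and genome sequence was read through pysam 0.24.0. The genome was GRCh37, and intron chains and start codons were compared with GENCODE release 44 mapped to that build. Sequences credited to RefSeq on GRCh38 came from its promoter table, in which 67 of the 84 genes were matched. Reading frames are the longest from ATG to stop. Proteins were aligned with Biopython 1.88 and pseudogenes with edlib 1.3.9.post1. The calculations were checked on simulated sequences. Intervals are Clopper-Pearson and cover counting error only.

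Named genes are those with joined models, the 10 with most RefSeq transcripts, those in shared loci, hosts of small nucleolar RNAs, the extremes of each measure, the stalk genes, RPS27A and paralogues. Some genes that this rule names are not reported here singly, though the counts include them. Other genes named as examples were picked with their values in view. The members and lists were chosen with earlier results of these data known. Alternatives concerned the sequences, genes and transcripts counted, the definition of the pyrimidine start, the start codon and the containment of small RNAs.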

Additional observations from a re-analysis of the deposited data

How the results depend on the processing

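Of 32 values under alternatives, 30 stayed within the limits set for their 11 results. The other 2 concerned the pyrimidine start, which went from 17.9% of genes to 51.2% when the C could lie within 5 bases of the start, and to 64.2% at the newer RefSeq starts. The second was chosen after seeing the data and covers 67 genes, of which 16.4% had the run at the start in the assembly. The cause was not tested. Counts without the paralogues for that start and with GENCODE start codons were also added after seeing the data. No paired analysis was possible because no value in the assembly belongs to a single library. The planned expression fit, its replicate block and its leave-one-out versions were therefore not run. Depth is unknown, and every statement is on annotation and assembled models.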
